A study of Homo sapiens with 6 samples.

Results

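The genes described here are DLK1, the Notch receptors NOTCH1, NOTCH2 and NOTCH3, the Notch ligands JAG1, JAG2, DLL1 and DLL3, and the Notch target genes HES1 and HEY1. These 10 genes were chosen by name and not by a measured value, though with earlier results of these data known. They were represented by 20 of the 22215 probe sets tested, for 9 of the 10 genes, and DLL1 was not analysed here. Transcript levels were measured on Affymetrix human oligonucleotide arrays in SH-SY5Y cells, an established human neuroblastoma line. Cells were kept for 4 h in medium with free bilirubin at 140 nM (Bf 140 nM), or in medium with the solvent only (DMSO 0.6%), and 3 arrays were made per group, each from its own flask. Both groups are cultures of the same single line, grown in serum and carrying no engineered allele. The comparison asks whether transcript levels of these genes differ early after exposure to bilirubin, the product of heme breakdown that is toxic to neurons at high levels.

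Notch receptors sit on the cell surface and are activated by ligands of the Jagged and Delta families on neighbouring cells. Binding leads to cleavage of the receptor by ADAM proteases and then by γ-secretase, and the released intracellular domain enters the nucleus, where it joins the DNA-binding protein RBPJ and a Mastermind coactivator. Genes switched on in this way include those of the HES and HEY families, which encode repressors of transcription and keep neural precursors from differentiating. DLK1 resembles the Delta ligands but lacks the domain they use to activate the receptor, and it is made by chromaffin and sympathoadrenal precursors and by many neuroblastomas.

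The promoter of HES1 is printed because HES1 is the classical gene through which RBPJ and Notch act. The sequence is from RefSeq (GRCh38.p14, plus strand, chr3:194135898-194136147), and covers the 250 bases before the annotated start of the gene. Capitals mark TGGGAA, the core of the RBPJ binding sequence.
HES1 promoter: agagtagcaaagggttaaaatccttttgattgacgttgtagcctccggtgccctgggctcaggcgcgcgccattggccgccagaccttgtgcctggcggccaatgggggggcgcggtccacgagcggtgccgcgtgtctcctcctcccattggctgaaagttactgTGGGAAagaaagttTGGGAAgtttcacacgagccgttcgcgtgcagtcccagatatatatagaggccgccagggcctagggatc
The 2 matches lay at -84 to -79 and at -70 to -65 relative to the start. Searched on both strands, TGGGAA occurred at least once in 20.8% of 35116 promoter windows of this length and at least 2 times in 2.9%. The N box CACNAG, the sequence to which HES proteins bind, occurred 3 times in the HES1 window, none overlapping TGGGAA, against at least 1 match in 32% and at least 2 in 6.32% of all windows. Of the 10 genes, 6 had a promoter sequence here (JAG1, JAG2, NOTCH1, NOTCH2, NOTCH3 and HES1), and of these TGGGAA was found in HES1 only. A match is a description of the letters and not of a bound site.

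The arrays, labelled as SH-SY5Y cells, showed most of the measured noradrenergic neuroblast markers. Of 11 measured noradrenergic neuroblast markers, 9 (PHOX2A, GATA2, GATA3, ISL1, DBH, DDC, CHGA, ELAVL4 and STMN2) lay above a background-like level on all 6 arrays, and TH and HAND2 did not. Of 10 measured mesenchymal or Schwann-like markers, 3 (COL1A1, COL3A1 and FN1) did so, while SOX10 and S100B did not. The mean level of the neuroblast markers ranged from 11.25 to 11.56 in Bf 140 nM and from 11.31 to 11.48 in DMSO 0.6%, and that of the mesenchymal markers from 7.95 to 8.15 and from 8.00 to 8.21. DMSO 0.6% replicate 3 stood apart, where the 3' probe set of β-actin exceeded the 5' one by 2.21, against 0.10 to 0.89 on the other arrays, a sign of how complete the labelled RNA was. The part of these array differences in the values below was not tested, and the range of each value with 1 array left out is given in the closing section.

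No difference in these 20 probe sets passed the test. Levels are normalised values on a generalised log2 scale, and differences are Bf 140 nM minus DMSO 0.6% on that scale. By limma with Benjamini-Hochberg adjustment over all 22215 probe sets, 0 of the 20 had an adjusted p under 0.10, and the lowest was 1.00. Over all probe sets, 0 (0%) passed in this fit, and 0 (0%) passed when the replicate number was added as a block. At an unadjusted p under 0.05 the counts over all probe sets were 17 (0.0765%) without the block and 92 (0.414%) with it, and 0 of the 20 were among either. Both counts are far below the fraction 0.05 of all probe sets that evenly spread p-values would give, for a reason that was not tested. Both fits thus called few probe sets of any kind, and passing none does not show that levels were equal. The 3 Bf 140 nM arrays lay all above the 3 DMSO 0.6% arrays for 373 probe sets (1.68%) and all below them for 218 (0.981%), and for none of the 20.

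**Figure D1:**
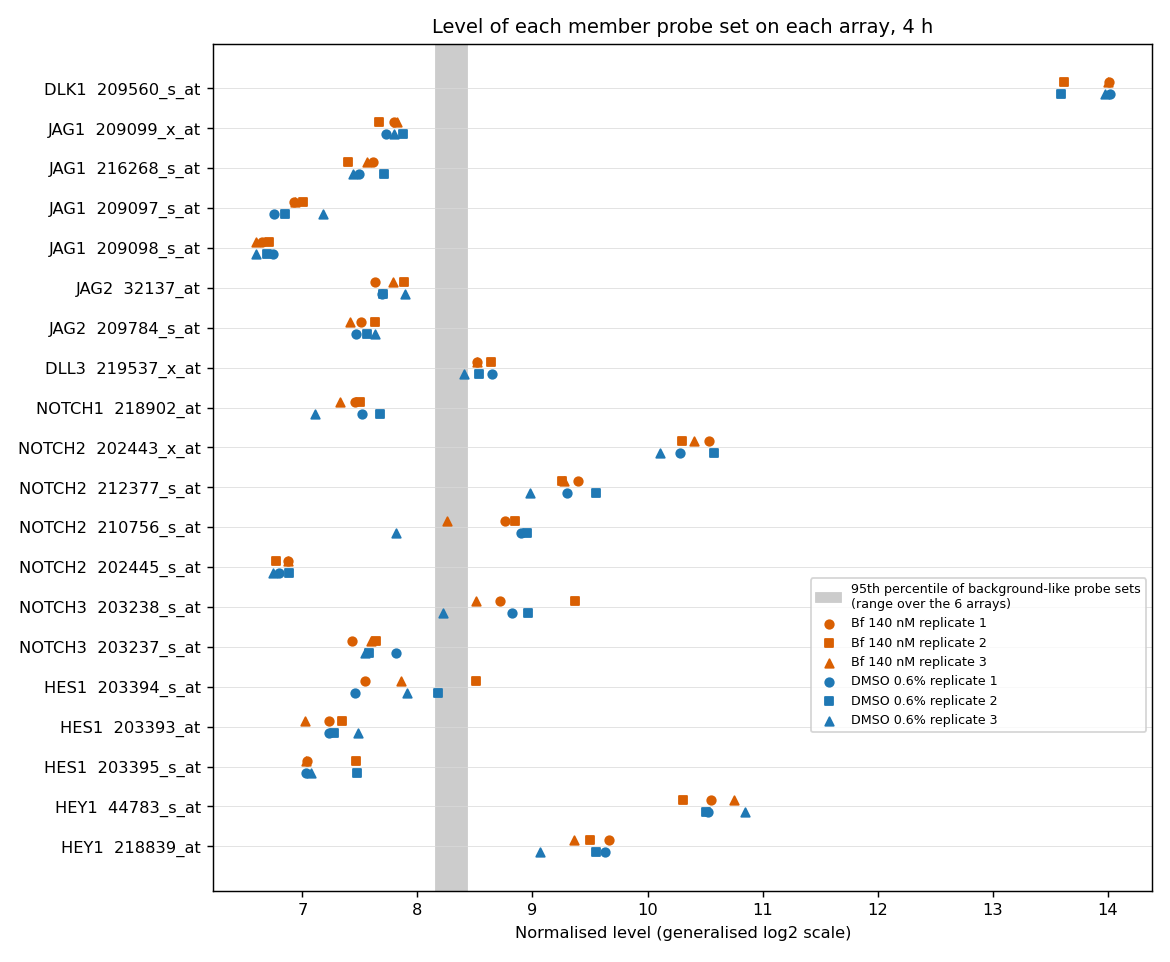
Level (generalised log2) of the 20 probe sets on each of the 6 arrays, with Bf 140 nM in orange, DMSO 0.6% in blue, and 1 marker shape per replicate number. The grey band is the range over arrays of the background-like level (8.16 to 8.43), and levels of different probe sets cannot be set against each other because probes differ in brightness. For every probe set the arrays of both groups overlap.

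A background-like level was set from 60 probe sets of 43 genes of unrelated differentiated tissues, whose 95th percentile was 8.16 to 8.43 on the 6 arrays. The 3 probe sets of KRT10, a keratin, had means of 10.32 to 10.67, above all others of that list (8.20 at most), and without them the 95th percentile was 7.61 to 7.86. On all 6 arrays 6 of the 20 probe sets exceeded the level with KRT10, and these belonged to DLK1, DLL3, NOTCH2 and HEY1. Over all probe sets, 8401 of 22215 exceeded it. Without KRT10 in the list, 7 of the 20 did so, the added one being a probe set of NOTCH3. With the 75th percentile as the level, 13 of the 20 did so. A probe set that did not exceed it is described as not above background, which does not show that the transcript is absent.

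DLK1 gave a very bright signal with the same levels in both groups to within their spread. Its probe set (209560_s_at) read 14.01, 13.62 and 14.00 in Bf 140 nM replicates 1 to 3 and 14.02, 13.59 and 13.98 in DMSO 0.6% replicates 1 to 3, where the highest probe set of each array read 14.5 to 15.2. Both groups held a low replicate 2 and 2 nearly equal higher arrays, so that the groups overlapped fully. The difference was 0.012 (SE 0.16), a 1.01-fold ratio with a 95% CI of 0.775 to 1.31. Between arrays of the same number, DLK1 differed by -0.0097, 0.026 and 0.020, against a range of 0.406 over the means of the 3 numbers. With the replicate number as a block the 95% CI of the fold was 0.851 to 1.20. DLK1 was read by this 1 probe set only.

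The probe sets most like DLK1 over the 6 arrays were chosen for that likeness, so that a low replicate number 2 in them is no separate result. Among 9948 probe sets with 1 gene symbol and a mean above the median, the highest Pearson correlations with DLK1 were those of SCARB2 (0.989), a lysosomal membrane protein whose probe set was above background on 0 of the 6 arrays, of DIP2C (0.988) and of CLK2 (0.982), a kinase of splicing factors. In all, 117 probe sets had a correlation above 0.9. These correlations are over only 6 arrays, which share their flasks' replicate numbers and their normalization, and are a description.

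The probe sets of the Jagged ligands were not above the 95th percentile level on any array. At the 75th percentile, the brightest JAG1 probe set and both JAG2 probe sets were above the level on all 6 arrays, so that this call depends on the level chosen. JAG1, a ligand that activates Notch receptors, was read by 4 probe sets, which lay between 6.60 and 7.88 with differences from -0.036 to 0.031. The brightest of them (209099_x_at) read 7.80, 7.67 and 7.82 in Bf 140 nM and 7.73, 7.88 and 7.79 in DMSO 0.6%. JAG2, the other Jagged ligand, had levels between 7.41 and 7.89 in its 2 probe sets, with differences of 0.0086 and -0.038.

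DLL3, a Delta family member that acts within the cell to inhibit Notch signalling, was just above background. It read 8.52, 8.64 and 8.52 in Bf 140 nM and 8.65, 8.53 and 8.41 in DMSO 0.6%. The highest array and the lowest array were both in the DMSO 0.6% group, which therefore enclosed the Bf 140 nM group. The difference was 0.031 (SE 0.10), or 1.02-fold (95% CI 0.863 to 1.21). At a level this near background, that interval is no firm limit on the fold of the transcript.

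Of the receptors NOTCH1, NOTCH2 and NOTCH3, only NOTCH2 was above background on all 6 arrays, and without KRT10 in the background list NOTCH3 was as well. NOTCH2 is a receptor of broad expression. The brightest NOTCH2 probe set (202443_x_at) read 10.54, 10.30 and 10.41 in Bf 140 nM and 10.28, 10.57 and 10.11 in DMSO 0.6%, so that the DMSO 0.6% arrays again enclosed those of Bf 140 nM. The difference was 0.093 (SE 0.14), or 1.07-fold (95% CI 0.848 to 1.34). By replicate number the difference was 0.25, -0.27 and 0.30, with 1 of the 3 pairs opposite to the others. A second probe set (212377_s_at) read 9.39, 9.26 and 9.27 in Bf 140 nM and 9.30, 9.55 and 8.98 in DMSO 0.6%, a difference of 0.031 (SE 0.15). It had the same order of signs over the pairs, at 0.094, -0.29 and 0.29.

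The other NOTCH2 probe sets were weaker. One (210756_s_at) was above background on 5 of 6 arrays and read 8.76, 8.84 and 8.25 in Bf 140 nM and 8.90, 8.95 and 7.81 in DMSO 0.6%. Replicate 3 was the lowest array in both groups. The difference of 0.064 had an SE of 0.32 in the unpaired fit and of 0.14 with the replicate number as a block. The last (202445_s_at) lay between 6.75 and 6.88. NOTCH2NLA is a partial copy of NOTCH2, so signal may be shared where their sequences agree. Which NOTCH2 probe sets lie in that part was not tested. The probe set named for NOTCH2NLA differed by -0.20 (SE 0.22).

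NOTCH3, the receptor with a known role in mesenchymal neuroblastoma cells, had the largest difference among the 20 probe sets, but also a wide spread. Its brighter probe set (203238_s_at) read 8.72, 9.37 and 8.51 in Bf 140 nM and 8.83, 8.96 and 8.22 in DMSO 0.6%, and was above background on 5 of the 6 arrays. Replicate 2 was highest and replicate 3 lowest in both groups. The difference was 0.20 (SE 0.27), or 1.15-fold (95% CI 0.741 to 1.77), and with the block the 95% CI was 0.942 to 1.39. By pair it was -0.11, 0.41 and 0.29. The second NOTCH3 probe set (203237_s_at), not above background, had a difference of the other sign, -0.092. NOTCH1 was likewise not above background, at 7.46, 7.50 and 7.33 in Bf 140 nM and 7.52, 7.68 and 7.11 in DMSO 0.6%, with a difference of -0.0060.

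**Figure D2:**
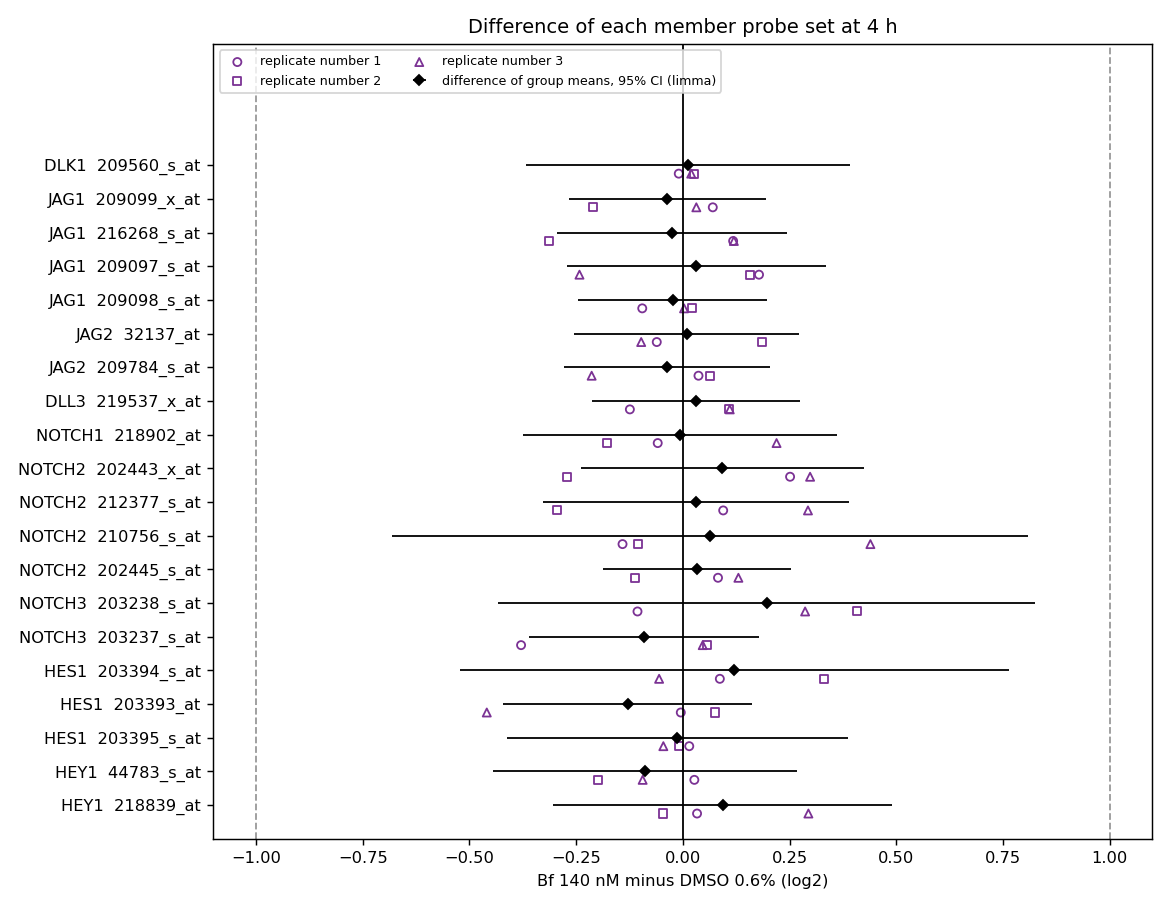
Difference between Bf 140 nM and DMSO 0.6% (log2) for each of the 20 probe sets, as the difference of group means with its 95% CI from limma (diamonds and lines) and as the value for each replicate number (open symbols). All 20 intervals cross 0 and lie between the dashed lines at -1 and 1. The intervals of 97.8% of all tested probe sets lie between these lines. For the 14 probe sets not above background on all arrays the interval sets no limit on the change of the transcript. For DLL3, just above background, it is no firm limit.

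HEY1, a repressor and direct Notch target, was well above background with 2 probe sets that differed in sign. The first (44783_s_at) read 10.55, 10.31 and 10.75 in Bf 140 nM and 10.52, 10.50 and 10.85 in DMSO 0.6%, a difference of -0.089 (SE 0.15) or 0.940-fold (95% CI 0.734 to 1.20). The second (218839_at) read 9.67, 9.50 and 9.36 in Bf 140 nM and 9.63, 9.55 and 9.06 in DMSO 0.6%, a difference of 0.093 (SE 0.17) or 1.07-fold (95% CI 0.810 to 1.41). On replicate number 3 the first probe set was at its highest in both groups and the second at its lowest. HEY1 thus had no direction common to its probe sets.

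HES1, whose promoter is printed above, was read by 3 probe sets and exceeded background on 1 of the 6 arrays with 1 of them. With the 75th percentile as the level, the same probe set exceeded it on all 6 arrays, and without KRT10 on 4. This call thus depends on the level chosen. That probe set (203394_s_at) read 7.54, 8.51 and 7.85 in Bf 140 nM and 7.46, 8.18 and 7.91 in DMSO 0.6%, highest on replicate 2 in both groups. The difference was 0.12 (SE 0.27, or 0.12 with the block), which at a level near background is no measure of the fold of the transcript. By pair it was 0.087, 0.33 and -0.056. The other probe sets of HES1 differed by -0.13 (203393_at) and by -0.013 (203395_s_at), and the first of these, with an unadjusted p of 0.332 by limma, had the lowest p of the 20.

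**Figure D3:**
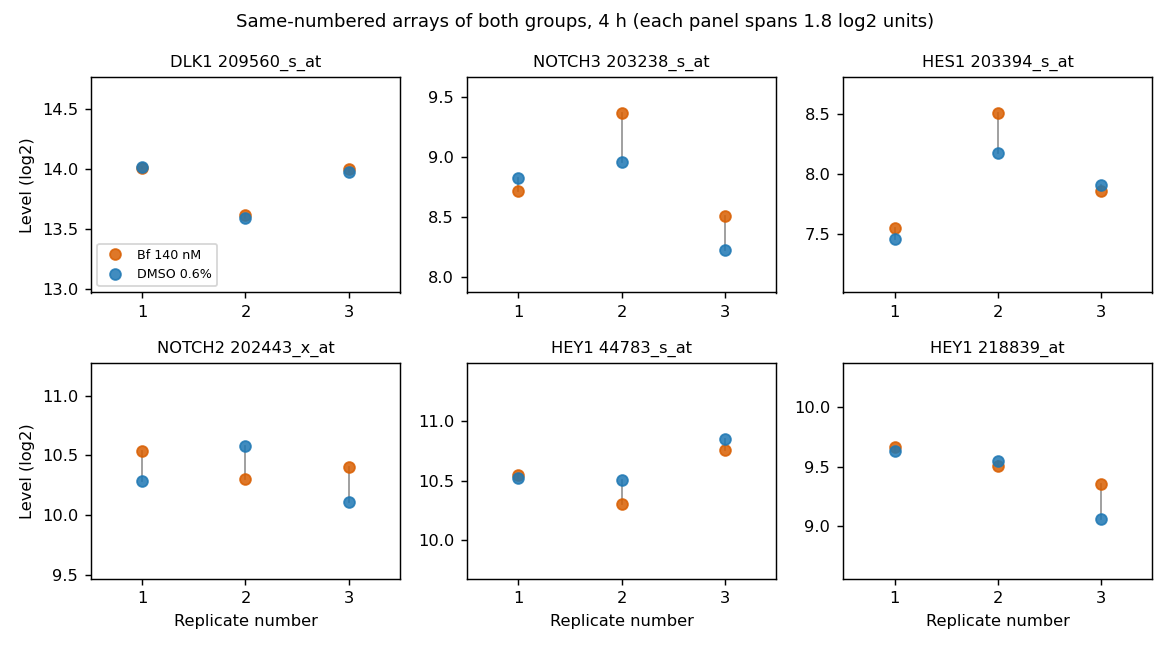
Level (log2) of 6 probe sets in Bf 140 nM and DMSO 0.6% by replicate number, with a grey line joining the arrays of 1 number. Each panel spans 1.8 log2 units. DLK1 shows almost no difference within a number against a range of 0.406 between numbers, while NOTCH2 changes sign from number to number.

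For some of these genes the arrays differed more by replicate number than by treatment, at a share near that of all probe sets. In 9 of the 20 probe sets the largest difference between same-numbered arrays was smaller than the range over the means of the 3 numbers, and the same held for 44.3% of all probe sets. The genes of this group had no common shift. The median difference over the 20 probe sets was 0.010, with 11 above and 9 below 0, against 0.031 over all probe sets, with 14030 above and 8185 below 0. Over the 6 probe sets above background the largest difference in either direction was 0.0932. For these 6 the 95% CI of the fold in the unpaired fit reached from 0.734 at the lowest to 1.41 at the highest, both for HEY1. With the block it reached from 0.790 for HEY1 (44783_s_at) to 1.31 for NOTCH2 (202443_x_at). DLL3, among these 6, was just above background, where the scale understates folds, so its interval is no firm limit on the transcript. The other 14 probe sets were not above background on all arrays, and their intervals set no limit on a change of the transcript.

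Other genes of the pathway gave the same picture. Of 64 listed genes 45 were measured, each by its brightest probe set, and 24 of these were above background. Of all 11963 genes, each by its brightest probe set, 5536 were above it. None of the 45 passed the test, and 0 had an unadjusted p under 0.05 by limma, against 13 of all 11963 genes. Differences lay between -0.22 and 0.22, with 29 above and 16 below 0 and a median of 0.032, close to that of all 11963 genes (0.032).

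Of the genes that modify, cut or degrade the receptors, none stood out. LFNG, a glycosyltransferase that changes which ligands a receptor answers to, differed by 0.071, and FURIN, which cuts the receptor on its way to the surface, by 0.10 (SE 0.10). Of the 8 cleavage genes measured, 6 were above background, with differences from -0.054 to 0.14. The ubiquitin ligase ITCH, which acts in turnover of the receptor, differed by 0.12 (SE 0.13). All 5 measured genes of receptor inhibition and turnover had differences above 0, with a median of 0.10, but only 1 of them was above background. NEURL1, a ubiquitin ligase for ligands, had -0.067. NOTCH4, the remaining receptor, had 0.053 and DLK2, the relative of DLK1, had -0.10. Of the genes named in this paragraph, only NOTCH4 was above background on all 6 arrays. FURIN was above it on 1 array, ITCH on 2, and LFNG, NEURL1 and DLK2 on 0. The differences of these dim genes set no limit on a change of the transcript.

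In the nucleus, the largest values in either direction were those of MAML1 and CTBP1. MAML1, the Mastermind coactivator, read 10.30, 10.01 and 10.21 in Bf 140 nM and 10.04, 10.12 and 9.68 in DMSO 0.6%, a difference of 0.22 (SE 0.15) with overlapping groups. CTBP1, a corepressor, read 10.89, 11.10 and 11.12 in Bf 140 nM and 11.24, 11.13 and 11.41 in DMSO 0.6%, a difference of -0.22 (SE 0.12). It was the 1 pathway gene of 45 with all Bf 140 nM arrays below all DMSO 0.6% arrays, and TLE2, another corepressor, chosen after its values were seen, was the 1 with all above, at 0.11 (SE 0.10). Over all 11963 genes the same held for 0.828% (all below) and 1.84% (all above), so these counts are near the background. RBPJ itself, also chosen after its values were seen, differed by -0.067 (SE 0.26, or 0.12 with the block). All 9 measured corepressors were above background, with 5 differences above and 4 below 0.

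The remaining targets and neighbours were dim. HES2, HEY2 and HEYL were not above background, and HEYL differed by 0.038. NEUROG1, a proneural factor of the kind that HES proteins repress, differed by 0.11. MEG3, the imprinted noncoding RNA next to DLK1, was not above background either, at 7.62, 7.87 and 7.28 in Bf 140 nM and 7.61, 7.55 and 7.28 in DMSO 0.6%.

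**Figure D4:**
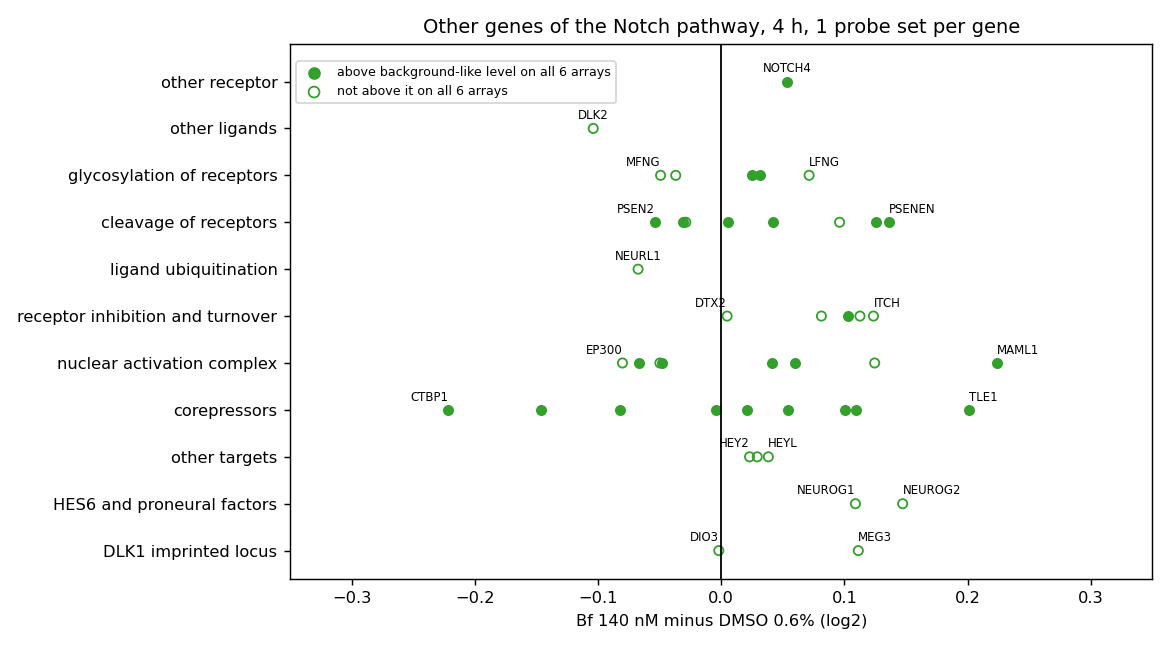
Difference between Bf 140 nM and DMSO 0.6% (log2) of 45 other genes of the Notch pathway by role, 1 probe set per gene, filled where the probe set was above background on all 6 arrays. The lowest and the highest gene of each role are named. Values run from CTBP1 at -0.22 to MAML1 at 0.22, and none passed the test.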

How the data were processed

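Total RNA from SH-SY5Y cells was hybridised to 6 arrays, 3 for Bf 140 nM and 3 for DMSO 0.6%, at 4 h. The authors normalised the intensities with the justvsn function in R version 2.5.0 (processing notes), and the deposited values are on a generalised log2 scale, which understates folds of dim probe sets. The study's own test was SAM at an FDR of about 10%, which was not rerun; limma 3.58.1 in R 4.3.3 was used instead on all 22215 probe sets that are not controls (62 controls left out), unpaired and two-sided, with Benjamini-Hochberg adjustment and a threshold of 0.10. Genes were named from the platform annotation, updated through RefSeq; 19064 probe sets had 1 symbol. Pathway genes were represented by their brightest probe set, and in each role the gene with the lowest p was named.

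A probe set was called above background where it exceeded, on all 6 arrays, the 95th percentile of 60 probe sets of genes of unrelated tissues. The members and lists were chosen with earlier results of these data known. The labels give both groups replicate numbers 1, 2 and 3, and same-numbered arrays deviated together from their group means (correlations 0.60, 0.23 and 0.57, above the minimum of 0.1), and 5 of the 6 arrays correlated best with their own number, DMSO 0.6% replicate 2 doing so with number 1. As all 3 correlations passed the minimum, the numbers were taken to pair the arrays and the block was run as an alternative. Other alternatives were quantile normalization, subtraction of array medians, a filter on dim probe sets, the β-actin 3' minus 5' difference as a covariate, other background levels, and leaving out each array. The unpaired fit was also tested on simulated data with independent noise on each array. Those data lack the variation that same-numbered arrays share, so they do not show how the fit behaves on these arrays. Arrays carry no read depth, and their number limits the precision.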

Additional observations from a re-analysis of the deposited data

How the results depend on the processing

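Under every alternative run, no tested probe set of DLK1 and the Notch genes passed the threshold or had an unadjusted p under 0.05 by limma. The lowest adjusted p by limma was 0.998, without Bf 140 nM replicate 2. All 20 were tested in each run except the filter on dim probe sets. That filter left out all probe sets of JAG1, JAG2, NOTCH1 and HES1, and the dimmest of NOTCH2 and of NOTCH3. The replicate block, which respects the pairing of the arrays, changed no call (0 of 20, and 0 of 22215). The signs of the differences were less stable, and most differences were close to 0. In all, 57 values of single probe sets turned their sign and 171 kept it. Among the 171 are all values of the replicate block and of the filter on dim probe sets. Both leave each difference as it is by construction and say nothing of its stability. Apart from the subtraction of array medians, treated in the next paragraph, the cause of the sign changes was not tested. What limits these results is the number of arrays and, for the dim probe sets, signal near background.

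With quantile normalization, the difference became -0.029 for JAG2 (32137_at), -0.023 for DLL3 and -0.040 for NOTCH2 (212377_s_at), and the median of the 20 became -0.026. Subtracting array medians moves the difference of every probe set alike, by the 0.032 by which the medians of the Bf 140 nM arrays exceeded those of DMSO 0.6%, and so shows nothing particular to these genes. With it, the difference became -0.020 for DLK1, -0.0010 for JAG1 (209097_s_at), -0.024 for JAG2 (32137_at), -0.0011 for DLL3 and -0.0014 for NOTCH2 (212377_s_at), with a median of -0.022. With the β-actin 3' minus 5' difference as a covariate, it became -0.040 and -0.13 for NOTCH2 (212377_s_at and 210756_s_at) and -0.0016 for HEY1 (218839_at), with a median of -0.025. With only the brighter 11107 probe sets, the median over the members among them was 0.048. With the 75th percentile as background level, 13 of the 20 probe sets in place of 6 lay above it, among them 1 of JAG1, both of JAG2, both of NOTCH3 and 1 of HES1. Taking the median over the probe sets of a gene, HES1 had -0.15 in place of 0.12.

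An alternative chosen after seeing the data was the replicate block without pair 3, which leaves out DMSO 0.6% replicate 3. There 2 of all 22215 probe sets passed (EIF4B and an unnamed one) and no member did. The median of the 20 became -0.0089, and the difference became 0.050 for JAG2 (209784_s_at), -0.0079 for DLL3, -0.0099, -0.10, -0.12 and -0.015 for NOTCH2 (202443_x_at, 212377_s_at, 210756_s_at and 202445_s_at), 0.036 and 0.0031 for HES1 (203393_at and 203395_s_at) and -0.0071 for HEY1 (218839_at). With the background level without KRT10, also chosen later, 7 probe sets lay above it, NOTCH3 (203238_s_at) being the added one.

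Leaving out 1 array at a time moved the median of the 20 between -0.034 (without DMSO 0.6% replicate 3) and 0.044 (without DMSO 0.6% replicate 2). The difference lay between -0.12 and 0.14 for DLK1, -0.072 and 0.011 (209099_x_at), -0.079 and 0.055 (216268_s_at), -0.056 and 0.16 (209097_s_at) and -0.063 and 0.0087 (209098_s_at) for JAG1, -0.050 and 0.078 (32137_at) and -0.093 and 0.013 (209784_s_at) for JAG2, and -0.029 and 0.089 for DLL3. It lay between -0.17 and 0.12 for NOTCH1, -0.014 and 0.22 (202443_x_at), -0.12 and 0.17 (212377_s_at) and -0.31 and 0.26 (210756_s_at) for NOTCH2, -0.056 and 0.37 for NOTCH3 (203238_s_at), -0.15 and 0.33 (203394_s_at) and -0.155 and 0.13 (203395_s_at) for HES1, and -0.20 and 0.026 (44783_s_at) and -0.082 and 0.20 (218839_at) for HEY1. The sign did not turn for NOTCH2 (202445_s_at, 0.0022 to 0.071), NOTCH3 (203237_s_at, -0.14 to -0.0097) and HES1 (203393_at, -0.20 to -0.041).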
